A study of Mus musculus with 9 samples.

Results

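The growth hormone and insulin-like growth factor (IGF) axis of the liver was described here through 10 genes. They were listed by name, with earlier results of these data known: Ghr, Stat5b, Igf1, Igfals, Igfbp1, Igfbp2, Igfbp4, Socs2, Cish and Bcl6. They are 10 of 12393 genes that have a probe set of their own on the array, and they are measured by 22 of 22626 probe sets that are not controls. A probe set is a group of short DNA probes against 1 transcript, and its signal is a linear brightness with no absolute unit. Growth hormone from the pituitary binds its receptor on hepatocytes, where the kinase JAK2 activates the transcription factor STAT5B, which in turn switches on Igf1, Igfals and the feedback inhibitors Socs2 and Cish. Most circulating IGF1 is made in the liver and travels with binding proteins, which prolong its life in the blood and limit its access to tissues. The pattern of growth hormone pulses differs between male and female rodents, and the sex-biased genes of the liver follow it.

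The study compared livers of 3 transgenic mouse models of NADPH-cytochrome P450 reductase (Cpr), the enzyme that passes electrons to microsomal cytochromes P450. All were 2-month-old males on a mixed background of C57BL/6 and 129/Sv, no treatment is named in the labels, and 8 or 9 mice per model were combined after RNA extraction into 3 independent pools, so that each of the 9 arrays holds RNA of several animals. The labels call the control Cpr-lox and the others Cpr-low and liver-Cpr-null, without their alleles. From general knowledge of these strains, liver-Cpr-null mice lack Cpr in hepatocytes through a Cre recombinase driven by the albumin promoter, Cpr-low mice have less Cpr in all tissues, and Cpr-lox mice carry the floxed gene. Cells other than hepatocytes therefore keep the gene in liver-Cpr-null livers, and tissues outside the liver are affected only in Cpr-low mice. Cpr itself was not analysed here, so the model names were not checked with it.

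Pools of 1 model correlated at Pearson r of 0.984 to 0.995 over the genes tested, and pools of different models at 0.969 to 0.988. Array run settings put the 3 Cpr-lox pools and Cpr-low pool 1 at the same first hybridization stamp and the other 5 arrays 102 to 193 minutes later, so no liver-Cpr-null pool shares a stamp with a control. Summed signals of 10 tested hepatocyte markers (of 11 listed) lay at 164896 to 171512 in Cpr-lox, 163023 to 168893 in Cpr-low and 144940 to 150131 in liver-Cpr-null pools, and those of 10 Kupffer cell markers (of 11), the macrophages of the liver, at 6764 to 7193, 6207 to 6885 and 9044 to 11622. Of these, 4 hepatocyte markers passed as lower and 8 Kupffer cell markers as higher in liver-Cpr-null against Cpr-lox (limma, adjusted p under 0.05). Of all 8879 genes tested, 3.44% were lower and 3.66% higher there. Against Cpr-low, 4 hepatocyte markers were lower and 7 Kupffer cell markers higher, beside 3.76% and 4.66% of all genes. The ratio of 3′ to 5′ signal of beta-actin, a sign of RNA integrity, was 1.62 to 1.99 in liver-Cpr-null pools, 1.23 to 1.43 in Cpr-lox and 1.17 to 1.26 in Cpr-low. That ratio for Gapdh was 2.34 to 2.48, 2.60 to 2.79 and 2.36 to 2.72 in the same order.

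Of the 10 members, 9 were bright enough to be tested across all genes, and 5 passed in at least 1 comparison: Ghr, Igf1, Igfals, Igfbp1 and Igfbp2. The ligand Igf1 and its carrier subunit Igfals fell in liver-Cpr-null livers, while in Cpr-low livers the receptor Ghr rose and Igf1, Igfbp1 and Igfbp2 fell. In liver-Cpr-null against Cpr-lox, 2 members were lower and 0 higher, where 7.10% of 8879 genes passed, 3.66% as higher and 3.44% as lower (limma, Benjamini-Hochberg adjusted p under 0.05). For Cpr-low against Cpr-lox, 1 member was higher and 3 were lower, against 5.79% of all genes, 2.31% higher and 3.48% lower. In liver-Cpr-null against Cpr-low, 2 members were higher and 2 lower, against 8.42% of all genes, 4.66% higher and 3.76% lower. The median log2 fold change of the 9 tested members in these 3 comparisons was -0.095, -0.0066 and -0.15, beside -0.040, 0.043 and -0.082 over all genes. How evenly the calls over all genes split into higher and lower depended on the scaling of the arrays. Higher against lower calls numbered 325 to 305, 205 to 309 and 414 to 334 as reported, 304 to 145, 102 to 249 and 524 to 131 with a common median, and 335 to 204, 137 to 295 and 521 to 179 with the signals as deposited. Signals below are scaled linear intensities, and differences are log2 fold changes ± SE on the log2(signal + 16) scale. Both comparisons with Cpr-lox use the same 3 control arrays and are therefore not independent.

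**Figure D1:**
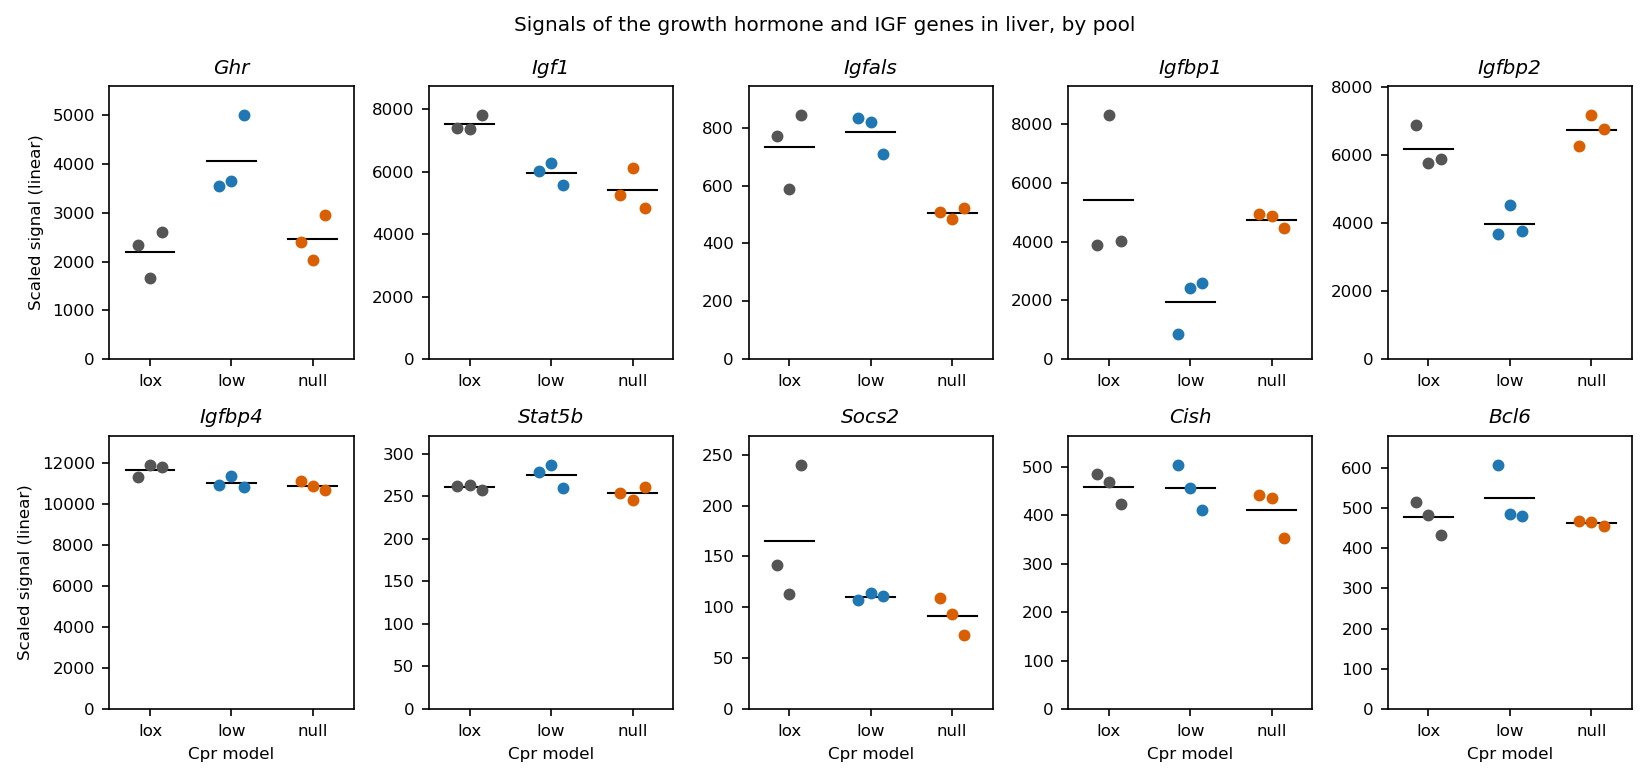
Scaled signal (linear, no absolute unit) of the 10 members in each of the 9 pools, 1 panel per gene, with points for pools and a line for the mean of each model; each vertical axis starts at 0. Igfbp2 lies lowest in the Cpr-low pools and Igfals in the liver-Cpr-null pools, with no overlap with the other models.

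Ghr encodes the growth hormone receptor and, in mice, by alternative splicing also the circulating growth hormone binding protein. Its brightest probe set read 2348, 1673 and 2604 in the 3 Cpr-lox pools, 3547, 3648 and 5003 in the 3 Cpr-low pools and 2413, 2043 and 2952 in the 3 liver-Cpr-null pools. All 3 Cpr-low pools lay above all 6 pools of the other models, whose values overlapped. Ghr was 1.84-fold higher in Cpr-low than in Cpr-lox (log2 fold change 0.88 ± 0.17 (SE), adjusted p = 0.00915) and 1.64-fold lower in liver-Cpr-null than in Cpr-low (log2 fold change -0.71 ± 0.17 (SE), adjusted p = 0.0252). Between liver-Cpr-null and Cpr-lox it did not pass (log2 fold change 0.17 ± 0.17 (SE), 95% interval -0.21 to 0.55, adjusted p = 0.699). A second probe set read 2482, 1995 and 2314 in the 3 Cpr-lox pools, 2914, 3279.8 and 3144 in the 3 Cpr-low pools and 2276, 2028 and 2473 in the 3 liver-Cpr-null pools. In the fit over all 22626 probe sets, where 2.96% passed in Cpr-low against Cpr-lox, it was higher in Cpr-low (0.46 ± 0.097, adjusted p = 0.017), again without overlap. The remaining probe set was dim, at 186, 177 and 201 in the 3 Cpr-lox pools, 209.8, 250.3 and 267 in the 3 Cpr-low pools and 165, 155 and 171 in the 3 liver-Cpr-null pools, and was lower in liver-Cpr-null than in Cpr-low (-0.52 ± 0.09, adjusted p = 0.00422) but did not pass between Cpr-low and Cpr-lox (0.34 ± 0.09, adjusted p = 0.0662).

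Within the first hybridization stamp, the single Cpr-low pool against the 3 Cpr-lox pools gave Ghr 0.70 ± 0.20, adjusted p = 0.0739, under the assumption that this lone pool varies like the rest. Within the later stamps, the 3 liver-Cpr-null pools against 2 Cpr-low pools gave -0.80 ± 0.18, adjusted p = 0.0436. The difference of Ghr between liver-Cpr-null and Cpr-low did not pass without Cpr-low pool 3 (adjusted p = 0.0645), without liver-Cpr-null pool 1 (0.0756) or without liver-Cpr-null pool 2 (0.0966), and the rise in Cpr-low passed whichever pool was left out. With the mean of its probe sets it was smaller (0.56 ± 0.11, adjusted p = 0.0132). That rise did not pass with arrays scaled to a common median (0.83 ± 0.22, adjusted p = 0.0624) or with the stamp as a block (0.70 ± 0.25, adjusted p = 0.0846). The fall from Cpr-low to liver-Cpr-null did not pass with a common median (-0.63 ± 0.22, adjusted p = 0.114) or with the deposited scaling (-0.65 ± 0.20, adjusted p = 0.075). In whole liver, fewer cells of a type and less RNA per cell cannot be told apart, which holds for all values given here.

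Igf1, the secreted ligand, was read by its brightest probe set at 7411, 7366 and 7807 in the 3 Cpr-lox pools, 6022, 6280.1 and 5572 in the 3 Cpr-low pools and 5269.8, 6105 and 4829 in the 3 liver-Cpr-null pools. All 6 pools of both Cpr-deficient models lay below all 3 controls, and liver-Cpr-null and Cpr-low pools overlapped. Igf1 was 1.40-fold lower in liver-Cpr-null than in Cpr-lox (log2 fold change -0.48 ± 0.085 (SE), adjusted p = 0.00372) and 1.26-fold lower in Cpr-low (log2 fold change -0.34 ± 0.085 (SE), adjusted p = 0.0354). Between the deficient models it did not pass (log2 fold change -0.15 ± 0.085 (SE), 95% interval -0.33 to 0.039, adjusted p = 0.274). The smaller of these falls rested on every pool of the comparison. It was lost without Cpr-lox pool 1, 2 or 3 (adjusted p = 0.0724, 0.0886 and 0.108), without Cpr-low pool 1, 2 or 3 (0.0819, 0.0558 and 0.1) and without liver-Cpr-null pool 1 (0.0507), while its size stayed between -0.39 and -0.29 over 20 alternatives. It was lost also with quantile normalization (adjusted p = 0.0559), with the mean of its probe sets (0.072) and with the stamp as a block (0.1). Within the first stamp, again from the lone Cpr-low pool 1, it was -0.32 ± 0.10, adjusted p = 0.103.

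Of the other probe sets of Igf1, 1437401_at departed from the brightest one in liver-Cpr-null. Probe set 1437401_at read 2835, 2735 and 3589 in the 3 Cpr-lox pools, 2848, 2417 and 2405 in the 3 Cpr-low pools and 1535, 1525 and 1348 in the 3 liver-Cpr-null pools. Here the liver-Cpr-null pools lay far below both other models, and the Cpr-low pools overlapped with the controls. In the fit over all probe sets, where 3.88% passed in liver-Cpr-null against Cpr-lox and 4.70% against Cpr-low, it fell against Cpr-lox (-1.04 ± 0.11, adjusted p = 6.50e-05) and against Cpr-low (-0.79 ± 0.11, adjusted p = 8.79e-04). It did not pass in Cpr-low against Cpr-lox (-0.25 ± 0.11, adjusted p = 0.337), and in that fit neither did the brightest probe set (-0.34 ± 0.086, adjusted p = 0.0518). The log2 ratio of this probe set to the brightest one, set to a mean of 0 in Cpr-lox, was -0.68 to -0.46 in liver-Cpr-null pools and -0.12 to 0.19 in Cpr-lox pools, a difference of -0.55. With an exact two-sided permutation test this gave p = 0.1, the smallest that 3 pools against 3 allow. In Cpr-low the same ratio differed from Cpr-lox by 0.090 (exact permutation p = 0.5). A dim probe set, 1419519_at, read 493, 538 and 746 in the 3 Cpr-lox pools, 407, 455 and 403 in the 3 Cpr-low pools and 461, 439 and 366 in the 3 liver-Cpr-null pools and did not pass in liver-Cpr-null (-0.46 ± 0.13, adjusted p = 0.0801) or in Cpr-low (-0.45 ± 0.13, adjusted p = 0.0955), although each of these 6 pools lay below each control pool. The log2 ratio of 1419519_at to the brightest probe set differed from Cpr-lox by 0.026 in liver-Cpr-null (exact permutation p = 0.9). In Cpr-low that ratio differed by -0.12 (exact permutation p = 0.7). Which transcripts of Igf1 each probe set detects was not tested.

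**Figure D2:**
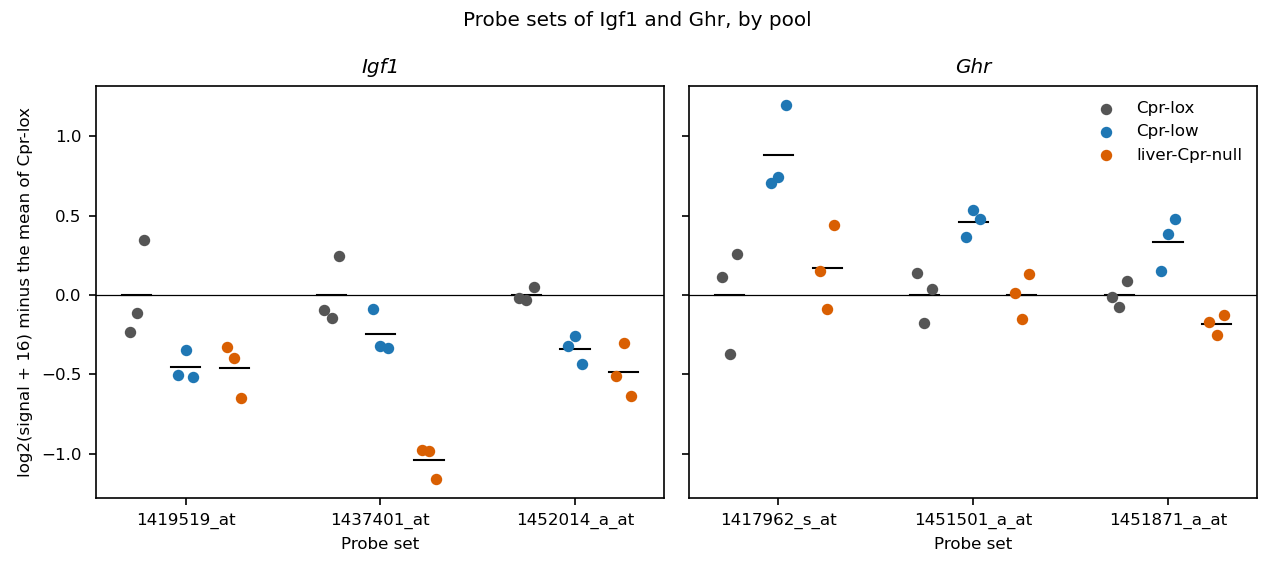
Change of each probe set of Igf1 and Ghr in every pool, as log2(signal + 16) relative to the Cpr-lox mean of that probe set, with points for pools and lines for model means. Probe set 1437401_at of Igf1 lies lowest in the liver-Cpr-null pools, and the 3 probe sets of Ghr lie highest in the Cpr-low pools.

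Igfals encodes the acid-labile subunit, which holds IGF1 and its binding protein in a large complex in blood. It is covered by 1 probe set, which read 772, 588 and 843 in the 3 Cpr-lox pools, 832, 818 and 709 in the 3 Cpr-low pools and 507, 483 and 524 in the 3 liver-Cpr-null pools. The liver-Cpr-null pools lay below all others, and the other models overlapped. Igfals was 1.43-fold lower in liver-Cpr-null than in Cpr-lox (log2 fold change -0.51 ± 0.12 (SE), adjusted p = 0.0169) and 1.54-fold lower than in Cpr-low (log2 fold change -0.62 ± 0.12 (SE), adjusted p = 0.00581), and did not pass between Cpr-low and Cpr-lox (log2 fold change 0.11 ± 0.12 (SE), 95% interval -0.14 to 0.36, adjusted p = 0.657). Against Cpr-low it passed in all 20 alternatives and within the later stamps (-0.58 ± 0.082, adjusted p = 0.0107). The call against Cpr-lox was lost without Cpr-lox pool 1 or 3 (adjusted p = 0.0683 and 0.0611) and without liver-Cpr-null pool 1 or 2 (0.0587 and 0.0623), and with a common median (-0.47 ± 0.13, adjusted p = 0.0669).

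For liver-Cpr-null against Cpr-lox, a fit with the stamp as a block gave Igf1 -0.46 ± 0.16, adjusted p = 0.152 and Igfals -0.39 ± 0.21, adjusted p = 0.341, so neither passed. That fit links the stamps through Cpr-low alone, since no stamp holds both models. The differences of Ghr, Igfbp2 and Cish that did not pass turned sign in it (-0.099, -0.045 and 0.052). The lower summed hepatocyte markers, the higher summed Kupffer cell markers and the higher beta-actin ratio of the liver-Cpr-null pools move with both falls. Their part in them was not tested. The Gapdh ratio was not higher in these pools, at 2.34 to 2.48 against 2.60 to 2.79 in Cpr-lox. The fall of Igf1 otherwise passed in 19 of 20 alternatives, with sizes between -0.66 and -0.41.

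Among the binding proteins, Igfbp2 is abundant in fetal and fasting liver and Igfbp1 is repressed by insulin. Igfbp2 read 6881, 5774 and 5874 in the 3 Cpr-lox pools, 3663, 4526 and 3761 in the 3 Cpr-low pools and 6250.2, 7164 and 6773 in the 3 liver-Cpr-null pools. The 3 Cpr-low pools lay below all others, and liver-Cpr-null overlapped with Cpr-lox. Igfbp2 was 1.55-fold lower in Cpr-low than in Cpr-lox (log2 fold change -0.63 ± 0.096 (SE), adjusted p = 0.00178) and 1.69-fold higher in liver-Cpr-null than in Cpr-low (log2 fold change 0.76 ± 0.096 (SE), adjusted p = 5.73e-04). Between liver-Cpr-null and Cpr-lox it did not pass (log2 fold change 0.13 ± 0.096 (SE), 95% interval -0.083 to 0.33, adjusted p = 0.573). Both calls held in all 20 alternatives. Within the first stamp the fall was -0.75 ± 0.12, adjusted p = 0.00927, a value from the lone Cpr-low pool 1 that also sets the estimate with the stamp as a block. Within the later stamps the difference of liver-Cpr-null from Cpr-low was 0.70 ± 0.098, adjusted p = 0.01. Of the members, Igfbp2 had the smallest p of the F test over the 3 models (adjusted p = 4.92e-04), at rank 108 of 8879 genes, of which 12.1% passed that test.

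Igfbp1 varied widely among pools. Its probe set read 3887, 8291 and 4031 in the 3 Cpr-lox pools, 845, 2436 and 2586 in the 3 Cpr-low pools and 4923, 4866 and 4448 in the 3 liver-Cpr-null pools. Cpr-lox pool 2 was far above the other controls and Cpr-low pool 1 far below the other Cpr-low pools, yet all Cpr-low pools lay below all pools of the other models. Igfbp1 was 2.88-fold lower in Cpr-low than in Cpr-lox (log2 fold change -1.53 ± 0.36 (SE), adjusted p = 0.0238) and 2.70-fold higher in liver-Cpr-null than in Cpr-low (log2 fold change 1.43 ± 0.36 (SE), adjusted p = 0.0279), and did not pass between liver-Cpr-null and Cpr-lox (log2 fold change -0.095 ± 0.36 (SE), 95% interval -0.87 to 0.68, adjusted p = 0.93). That last value is not stable: with the stamp as a block it was -1.65 ± 0.41, adjusted p = 0.0723, and without Cpr-lox pool 2 it was 0.26 (adjusted p = 0.879). Without Cpr-lox pool 2 the fall in Cpr-low was -1.17 (adjusted p = 0.111), and without Cpr-low pool 1 it was -1.01 (adjusted p = 0.0512). The difference between the deficient models was lost without Cpr-low pool 1 (0.91, adjusted p = 0.0614) and without liver-Cpr-null pool 1, 2 or 3 (adjusted p = 0.0834, 0.0759 and 0.0567). Within the later stamps, which leave that low pool out, it was 0.91 ± 0.076, adjusted p = 0.00164. Within the first stamp the fall in Cpr-low was -2.56 ± 0.33, adjusted p = 0.00251, which rests on Cpr-low pool 1. With the stamp as a block it was -2.56 ± 0.32, adjusted p = 0.00165, and the difference between the deficient models was 0.91 ± 0.25, adjusted p = 0.0619. With a common median neither passed (-1.57 ± 0.42, adjusted p = 0.0677 and 1.52 ± 0.42, adjusted p = 0.0547).

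Igfbp4, a binding protein that inhibits IGF action, has 6 probe sets, and 0 passed in any comparison (limma over all probe sets). At an unadjusted p under 0.05 there were 2, 1 and 1 in liver-Cpr-null against Cpr-lox, Cpr-low against Cpr-lox and liver-Cpr-null against Cpr-low. Its brightest read 11350.2, 11912 and 11824 in the 3 Cpr-lox pools, 10928, 11366 and 10858 in the 3 Cpr-low pools and 11119.7, 10903 and 10679 in the 3 liver-Cpr-null pools. These values lie within a narrow band in all models, and the differences were -0.10 ± 0.055, adjusted p = 0.374 in liver-Cpr-null and -0.082 ± 0.055, adjusted p = 0.466 in Cpr-low. Deposited values of Igfbp4 and of other bright probe sets repeat between arrays. Of 2283 probe sets with a mean signal over 1000, 27.4% hold the same value on at least 2 arrays, and of the 12 such probe sets of the members 4 do so, all of Igfbp4.

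**Figure D3:**
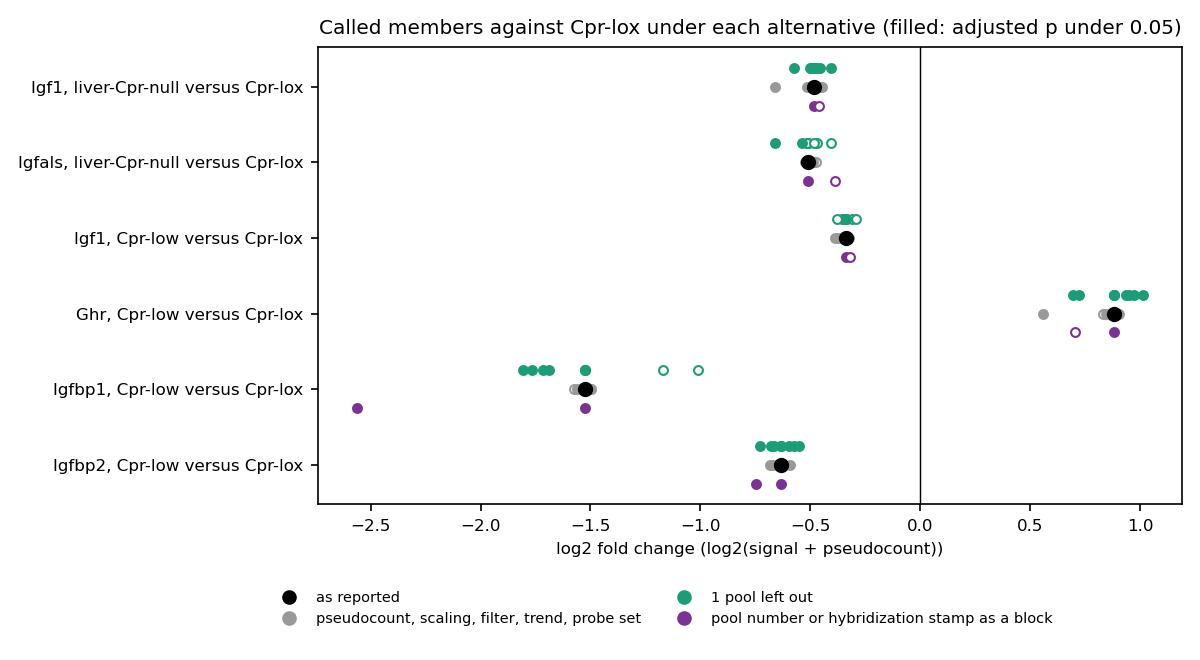
Log2 fold change, on the log2(signal + pseudocount) scale, of each member that passed against Cpr-lox, as reported and under each alternative, with filled points where the adjusted p was under 0.05. The values of Igfbp2 stay between -0.75 and -0.55, and those of Igfbp1 spread from -2.56 to -1.01.

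None of the signal transducer and feedback genes passed across all genes. Stat5b, the main transcription factor behind the receptor, read 262, 263 and 257 in the 3 Cpr-lox pools, 278, 286 and 259 in the 3 Cpr-low pools and 254, 245 and 260.4 in the 3 liver-Cpr-null pools. The models overlapped, with -0.04 ± 0.066, adjusted p = 0.823 in liver-Cpr-null and 0.07 ± 0.066, adjusted p = 0.615 in Cpr-low. Its second probe set read 204, 191 and 169.6 in the 3 Cpr-lox pools, 218, 189 and 218 in the 3 Cpr-low pools and 186, 171 and 168 in the 3 liver-Cpr-null pools. Cish, a feedback inhibitor induced by STAT5, read 484, 468 and 423 in the 3 Cpr-lox pools, 503, 456 and 411 in the 3 Cpr-low pools and 443, 436 and 354 in the 3 liver-Cpr-null pools, where the models again overlapped, with log2 fold change -0.16 ± 0.10 (SE), 95% interval -0.38 to 0.061, adjusted p = 0.485 in liver-Cpr-null and -0.0066 ± 0.10, adjusted p = 0.978 in Cpr-low. For Bcl6, a repressor that competes with STAT5 for binding sites, the brightest probe set read 515, 483 and 433 in the 3 Cpr-lox pools, 607, 486 and 481 in the 3 Cpr-low pools and 469, 464 and 457 in the 3 liver-Cpr-null pools. Both deficient models overlapped with Cpr-lox, and the liver-Cpr-null pools lay below the Cpr-low pools. None of these differences passed, with -0.037 ± 0.096, adjusted p = 0.894 in liver-Cpr-null, 0.13 ± 0.096, adjusted p = 0.518 in Cpr-low and -0.17 ± 0.096, adjusted p = 0.269 between them. With the stamp as a block the first 2 became 0.28 ± 0.13, adjusted p = 0.262 and 0.34 ± 0.10, adjusted p = 0.0506, and with the mean of probe sets 0.17 ± 0.13, adjusted p = 0.577 and 0.40 ± 0.13, adjusted p = 0.112, so the sign in liver-Cpr-null is not settled. Both block values depend on Cpr-low pool 1, which read 607 against 486 and 481 in the other Cpr-low pools. A dim second probe set of Bcl6 read 143, 204 and 129.6 in the 3 Cpr-lox pools, 352, 234 and 207 in the 3 Cpr-low pools and 246, 182 and 195 in the 3 liver-Cpr-null pools. In Cpr-low each of its pools lay above each control pool, but the difference did not pass (0.67 ± 0.18, adjusted p = 0.0645).

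Socs2, an inhibitor of the growth hormone receptor, was too dim for the test across genes, and both of its probe sets were read from the fit over all probe sets. Probe set 1449109_at read 142, 113 and 239.7 in the 3 Cpr-lox pools, 107, 114 and 111 in the 3 Cpr-low pools and 109, 93.6 and 72.9 in the 3 liver-Cpr-null pools. The liver-Cpr-null pools lay below all control pools, and Cpr-lox pool 3 stood far above the other controls. The differences were -0.70 ± 0.19, adjusted p = 0.0527 in liver-Cpr-null and -0.46 ± 0.19, adjusted p = 0.292 in Cpr-low. With no filter on signal, over 12393 genes, the same probe set gave an adjusted p of 0.0444 in liver-Cpr-null, in a fit that holds 1 probe set per gene. Its second probe set read 84.5, 79.0 and 146 in the 3 Cpr-lox pools, 89.9, 96.5 and 90.8 in the 3 Cpr-low pools and 79.7, 79.8 and 69.0 in the 3 liver-Cpr-null pools and gave -0.33 ± 0.15, adjusted p = 0.337 in liver-Cpr-null, again with Cpr-lox pool 3 the highest.

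**Figure D4:**
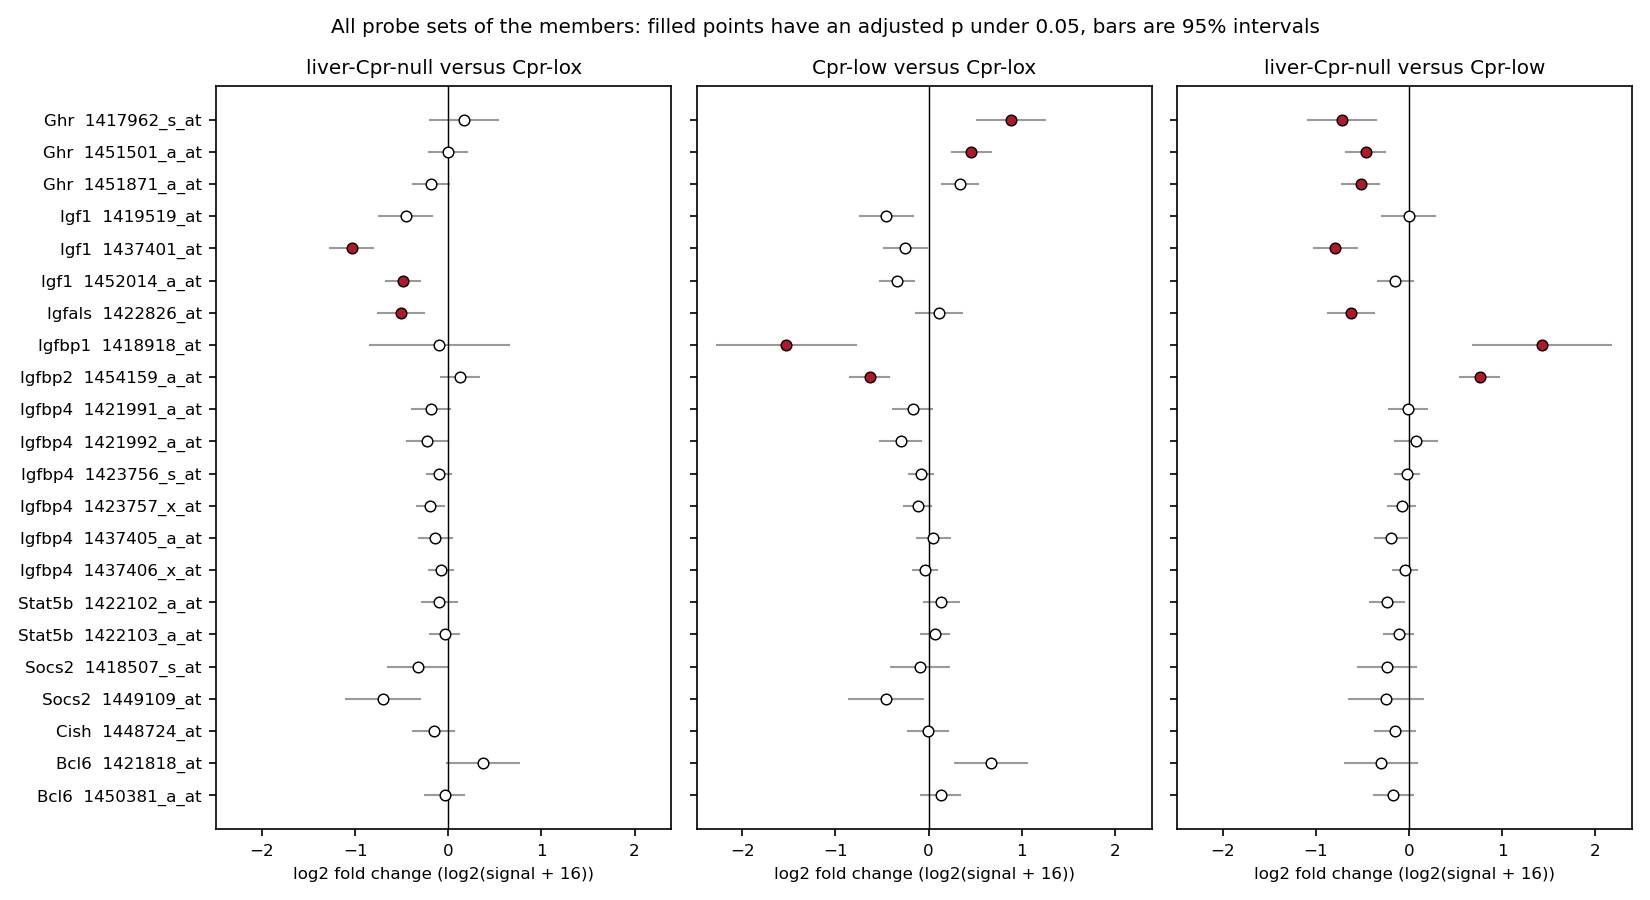
Log2 fold change, on the log2(signal + 16) scale, of each of the 22 probe sets of the members in 3 comparisons, with 95% intervals from the fit over all probe sets and filled points at an adjusted p under 0.05. In liver-Cpr-null against Cpr-lox 3 probe sets passed, in Cpr-low against Cpr-lox 4, and in liver-Cpr-null against Cpr-low 7, of which 3 are of Ghr. Of all 22626 probe sets, 3.88%, 2.96% and 4.70% passed in the same order.

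Promoter sequences of the members were read from RefSeq (GRCm38.p6), each from 250 bases before to 30 after an annotated start, for 9 of 10 members and 15 windows. They were searched for TTCNNNGAA, the core that STAT5 is known to bind and that reads alike on both strands, and, on both strands, for CAAAACA, part of the insulin response sequence known from Igfbp1. TTCNNNGAA was found in 5 windows of 3 members (Igfals, Cish and Bcl6) and in 7.83% of all 32851 promoter windows, and 9.04% of 27025 genes have it in at least 1 window. CAAAACA was found in the window of Igfbp1 alone among the members and in 5.97% of all windows, and the matches of the motifs did not overlap. The windows below show where these letters lie in a member that fell in liver-Cpr-null (Igfals, chr17:24877981-24878260, plus strand), in a pair that did not pass (Cish, chr9:107296409-107296688, plus strand, and Bcl6, chr16:23981254-23981533, minus strand) and in a member that fell in Cpr-low (Igfbp1, chr11:7197537-7197816, plus strand). They are written 5′ to 3′ on the strand of the gene, with the matches in capitals.
Igfals: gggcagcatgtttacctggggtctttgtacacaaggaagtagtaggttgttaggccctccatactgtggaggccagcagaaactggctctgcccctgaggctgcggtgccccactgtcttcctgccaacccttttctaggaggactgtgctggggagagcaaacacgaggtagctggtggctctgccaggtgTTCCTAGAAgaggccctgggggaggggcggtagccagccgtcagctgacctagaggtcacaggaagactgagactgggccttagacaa
Cish: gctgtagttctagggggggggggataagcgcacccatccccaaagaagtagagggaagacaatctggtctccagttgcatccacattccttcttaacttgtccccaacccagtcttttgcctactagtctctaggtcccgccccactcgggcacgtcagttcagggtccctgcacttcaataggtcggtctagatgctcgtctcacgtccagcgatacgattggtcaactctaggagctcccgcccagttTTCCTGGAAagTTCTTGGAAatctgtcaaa
Bcl6: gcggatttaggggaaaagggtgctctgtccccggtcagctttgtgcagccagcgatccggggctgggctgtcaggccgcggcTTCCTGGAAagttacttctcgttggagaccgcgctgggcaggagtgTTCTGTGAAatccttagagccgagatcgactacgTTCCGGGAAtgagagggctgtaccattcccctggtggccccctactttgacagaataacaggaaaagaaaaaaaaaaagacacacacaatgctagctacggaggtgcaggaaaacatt
Igfbp1: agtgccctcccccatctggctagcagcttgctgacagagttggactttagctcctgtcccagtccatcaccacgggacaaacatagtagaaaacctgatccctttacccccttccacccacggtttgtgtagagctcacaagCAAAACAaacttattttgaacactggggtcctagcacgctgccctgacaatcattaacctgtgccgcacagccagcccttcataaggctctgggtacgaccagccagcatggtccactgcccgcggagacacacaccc
A match is a run of letters and not a binding site. Igfals and Cish both hold TTCNNNGAA while only the former passed in liver-Cpr-null, and no difference between the 2 genes was tested. The windows of Igf1, Ghr, Igfbp2, Igfbp4 and Stat5b hold neither motif, which says nothing about sites elsewhere.

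Other genes of the pathway were read from lists, which were chosen with earlier results of these data known. Of 19 other growth hormone receptor signalling genes, 17 were tested, and 1 was lower in each comparison. Medians were -0.091, 0.050 and -0.12 in liver-Cpr-null against Cpr-lox, Cpr-low against Cpr-lox and liver-Cpr-null against Cpr-low. Over all genes, 3.44%, 3.48% and 3.76% were lower in these comparisons, with medians of -0.040, 0.043 and -0.082. Ptpn11, the phosphatase SHP2, was at 920.2 ± 26.2 (SD, n = 3) in Cpr-lox, 740.5 ± 41.6 in Cpr-low and 756 ± 34.8 in liver-Cpr-null, and fell in both models (-0.28 ± 0.075, adjusted p = 0.0411 in liver-Cpr-null, -0.31 ± 0.075, adjusted p = 0.0293 in Cpr-low). These calls held in 10 and 14 of 20 alternatives. Both were lost without any 1 of the Cpr-lox pools, where the adjusted p for liver-Cpr-null was 0.136, 0.0846 and 0.0886, and for Cpr-low 0.0894, 0.0724 and 0.0709. They were lost also without Cpr-low pool 2 (0.0669), liver-Cpr-null pool 1 (0.143), liver-Cpr-null pool 2 (0.0567) or liver-Cpr-null pool 3 (0.151) for liver-Cpr-null, and without Cpr-low pool 2 (0.0793) or Cpr-low pool 3 (0.0829) for Cpr-low, with the adjusted p in brackets. With the stamp as a block neither passed (-0.17 ± 0.12, adjusted p = 0.465 in liver-Cpr-null and -0.24 ± 0.096, adjusted p = 0.113 in Cpr-low), and with a common median or the deposited scaling the fall in liver-Cpr-null did not (adjusted p = 0.0732 and 0.0541). Irs1, the docking protein of insulin and IGF1 receptors, was at 695 ± 90.2, 751 ± 123 and 497 ± 75.1 in the same order and was lower in liver-Cpr-null than in Cpr-low (-0.58 ± 0.13, adjusted p = 0.0184). That call was lost without Cpr-low pool 2 (0.08), liver-Cpr-null pool 1 (0.0875) or liver-Cpr-null pool 2 (0.0588), with the adjusted p in brackets, and with a common median (0.0799) or the deposited scaling (0.0572). Against Cpr-lox, Irs1 in liver-Cpr-null did not pass (-0.47 ± 0.13, adjusted p = 0.0502), passed in 7 of 20 alternatives and was -0.80 ± 0.22, adjusted p = 0.089 with the stamp as a block. Of 13 other IGF ligands, receptors, binding proteins and processing genes, 10 were tested and 0 passed in any comparison (limma), with 0, 1 and 2 at an unadjusted p under 0.05.

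Sex-biased liver genes, which growth hormone pulses control in rodents, were read next, from lists also chosen with earlier results known. Of 18 male-biased genes 12 were tested. Over all genes 3.44% were lower and 3.66% higher in liver-Cpr-null than in Cpr-lox, with a median log2 fold change of -0.040. Of the 12, 5 were lower and 0 higher there, with a median of -0.30. The summed hepatocyte markers were lower in the same pools, and their part in these falls was not tested. In Cpr-low, 2 were lower and 0 higher (median 0.0082), and 6 were lower and 0 higher in liver-Cpr-null than in Cpr-low (median -0.28). Over all genes, 3.48% were lower in the first of these comparisons and 3.76% in the second, with medians of 0.043 and -0.082. Cyp7b1, an oxysterol hydroxylase, was at 4886 ± 850.4 (SD, n = 3) in Cpr-lox, 2269 ± 178 in Cpr-low and 1494 ± 255 in liver-Cpr-null. It fell in liver-Cpr-null (-1.70 ± 0.13, adjusted p = 6.89e-06) and in Cpr-low (-1.09 ± 0.13, adjusted p = 3.61e-04) in all 20 alternatives. The difference of Cyp7b1 between the deficient models (-0.61 ± 0.13, adjusted p = 0.013) was lost without Cpr-low pool 2 (adjusted p = 0.0599), liver-Cpr-null pool 2 (0.0569) or liver-Cpr-null pool 3 (0.051), and with a common median (-0.52 ± 0.16, adjusted p = 0.0851). Hsd3b5, a steroid dehydrogenase with close sequence relatives, was at 640.3 ± 279.7, 1545 ± 860.1 and 133 ± 11.6 in the same order. It fell in liver-Cpr-null (-2.04 ± 0.36, adjusted p = 0.00349) and did not pass in Cpr-low (1.20 ± 0.36, adjusted p = 0.0732). With the stamp as a block, these values became -0.80 ± 0.52, adjusted p = 0.429 and 2.03 ± 0.41, adjusted p = 0.0142. The second estimate comes from the lone Cpr-low pool 1 of the first stamp, and the first is linked through that pool. Hsd3b5 was lower in liver-Cpr-null than in Cpr-low (-3.24, adjusted p = 2.26e-04) in all 20 alternatives. Within the later stamps this difference was -2.83 ± 0.20, adjusted p = 0.00164.

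Slco1a1, an organic anion transporter, fell in liver-Cpr-null from 1496 ± 127 to 870.5 ± 25.8 (-0.77 ± 0.10, adjusted p = 5.28e-04), and also with the stamp as a block (-1.09 ± 0.14, adjusted p = 0.0046). In Cpr-low it was at 1481 ± 196 (-0.02 ± 0.10, adjusted p = 0.93). Elovl3, a fatty acid elongase, fell from 2391 ± 343 to 1446 ± 127 (-0.71 ± 0.10, adjusted p = 9.74e-04), a call lost with the block (-0.73 ± 0.19, adjusted p = 0.0805). Slco1a1 and Elovl3 were also lower in liver-Cpr-null than in Cpr-low (-0.75, adjusted p = 8.33e-04 and -0.90, adjusted p = 3.08e-04), both in all 20 alternatives. Egfr, the epidermal growth factor receptor, was lower in liver-Cpr-null (-0.49 ± 0.081, adjusted p = 0.00264) and in Cpr-low (-0.42 ± 0.081, adjusted p = 0.00789). The first of these calls was lost with the block (-0.45 ± 0.14, adjusted p = 0.138), and the second when the probe sets of Egfr were averaged (-0.10, adjusted p = 0.562). Gstp1, a glutathione transferase, was lower in liver-Cpr-null than in Cpr-low (-0.35 ± 0.059, adjusted p = 0.00308), at 18156 ± 1231 against 23090.5 ± 936. Against Cpr-lox it did not pass in liver-Cpr-null (-0.15, adjusted p = 0.174) or in Cpr-low (0.20, adjusted p = 0.0773).

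Of 20 female-biased genes 12 had a probe set of their own and 4 of these were bright enough to test, so the list says little about that direction in these male livers. Cd36, a fatty acid translocase, rose in liver-Cpr-null from 112 ± 6.71 to 307 ± 41.3 (1.33 ± 0.099, adjusted p = 4.52e-06), and was at 106 ± 12.3 in Cpr-low. It rose also with the stamp as a block (1.16 ± 0.17, adjusted p = 0.00732), and macrophages, whose markers were higher in these pools, also express it. Their part in the rise was not tested. Cyp17a1, a steroid hydroxylase, was at 1287 ± 746 in Cpr-lox, 227 ± 19.4 in Cpr-low and 335 ± 63.97 in liver-Cpr-null. It fell in both deficient models (-1.71 ± 0.34, adjusted p = 0.00768 in liver-Cpr-null, -2.22 ± 0.34, adjusted p = 0.00175 in Cpr-low), the former not with the block (-1.70 ± 0.66, adjusted p = 0.193). No list was tested as a set.

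**Figure D5:**
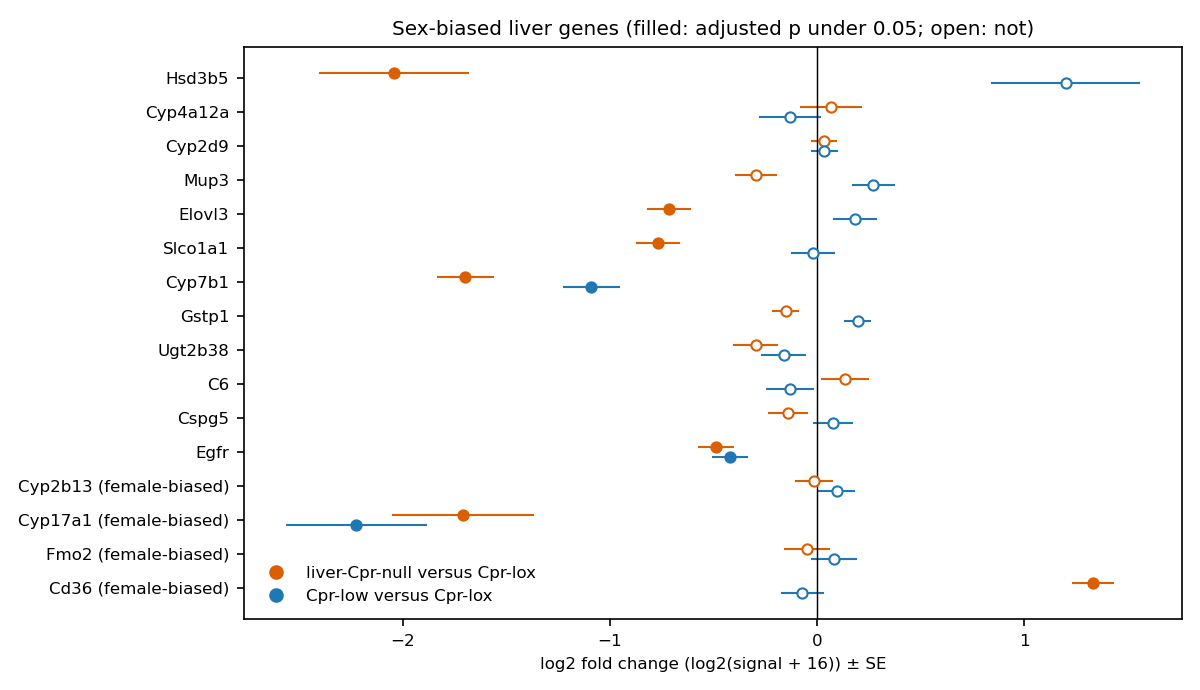
Log2 fold change ± SE, on the log2(signal + 16) scale, of the tested male-biased and female-biased liver genes in liver-Cpr-null and in Cpr-low, each against Cpr-lox. Filled points have an adjusted p under 0.05. In liver-Cpr-null against Cpr-lox 5 of 12 male-biased genes passed as lower and 0 as higher, beside 3.44% and 3.66% of all genes.

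The genes whose log2 signals followed Igfbp2 most closely over the 9 arrays, out of all genes tested, were Cdk4 (Pearson r = 0.977), Spp2 (0.975), Leprotl1 (0.954), Celf2 (0.954) and Ctsz (0.946). Spp2, a secreted phosphoprotein of the liver, averaged 2456 in Cpr-lox, 1782 in Cpr-low and 2505 in liver-Cpr-null, so it shares with Igfbp2 the lowest level in Cpr-low. For Igf1 they were Itih3 (0.938), Rapgef1 (0.937), Bfar (0.937), Apoa4 (0.937) and Spin1 (0.936). Itih3, a plasma protein, averaged 8342, 5899 and 4687 and Apoa4, an apolipoprotein, 19334, 7601 and 7179 in the same order, both highest in Cpr-lox as Igf1 was. These correlations describe 9 arrays that share models and stamps, and were picked as the highest of many.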

How the data were processed

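Liver RNA of 3 models, 3 pools each, was measured on 9 Affymetrix MOE430A arrays from 5 micrograms of total RNA per pool, per the labels and the file headers. For each probe set the authors deposited 1 linear intensity as a whole number. The sources used here do not give how probes were summarised, corrected for background or scaled. The authors' array run settings, other deposited values, gave the hybridization stamps. The 2% trimmed means of the arrays differed by 10.2%, above a tolerance of 5%, so signals were scaled to a common trimmed mean.

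Gene symbols came from GEO's platform annotation, of which RefSeq names (GRCm38.p6), matched by gene number, changed 0. Of 22626 probe sets that are not controls, 20380 had 1 symbol, 691 several and 1555 none. Values were log2(signal + 16), so fold changes of dim probe sets are understated. Probe sets in the upper 60% by mean were kept and the brightest stood for its gene, which left 8879 genes. A single linear model over the 9 arrays was fitted with limma 3.58.1 in R 4.3.3 and moderated by eBayes with a trend on intensity. Tests were two-sided with 6 residual degrees of freedom and Benjamini-Hochberg adjustment over all genes, and all probe sets entered a second fit without the filter. The fit was tested on simulated data. The number of arrays limits the precision. P-values measure the spread between pools.

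Alternatives were other pseudocounts (1 and 64), scalings (common median, quantile, as deposited), filters (none, upper 40%), no intensity trend, the mean of probe sets per gene, the pool number or the stamp as a block, and leaving out each pool. For the stamp block, all later stamps were merged and set against the first. Within-stamp fits, which also merge the later stamps, were chosen after seeing the data. The members and lists were chosen with earlier results of these data known. All members were named. From each pathway list, genes that passed in at least 1 comparison were named, up to 6 by smallest adjusted p. For the 2 members with the smallest F test p, the 5 most correlated genes were named.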

Additional observations from a re-analysis of the deposited data

How the results depend on the processing

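With 3 pools a model, small calls depended on single pools and on the array scaling, and run stamp and model are nearly the same split of the arrays. Over 11 alternatives other than leaving out a pool, 18 counts of called genes gave 198 values, of which 171 were within 1.5 times the reported count. With the stamp as a block, 149 genes passed in liver-Cpr-null against Cpr-lox and 1090 in Cpr-low against Cpr-lox. Members passing then numbered 0 and 2, male-biased genes 2 and 4, other growth hormone signalling genes 0 and 2 (Ptpn11 not among them), other IGF genes 2 in Cpr-low, and female-biased genes 1 in liver-Cpr-null. In that fit the Cpr-low estimate against Cpr-lox comes from Cpr-low pool 1 alone, so the counts for Cpr-low rest on 1 array. The estimate for liver-Cpr-null against Cpr-lox is linked through the Cpr-low pools. For the stamp block the cause was not tested. With a common median 1, 2 and 2 members passed in liver-Cpr-null against Cpr-lox, Cpr-low against Cpr-lox and liver-Cpr-null against Cpr-low. Other growth hormone signalling genes numbered 0 in the first and last of these. Of all genes, 449, 351 and 655 of 8878 passed there, beside 630, 514 and 748 of 8879 as reported. The deposited scaling gave 0, 2 and 0 such signalling genes, where 539, 432 and 700 of all genes passed. Quantile normalization gave 2 of these signalling genes in Cpr-low, where 524 of all genes passed. No intensity trend, a pseudocount of 1 and the upper 40% filter each gave 2 of them in liver-Cpr-null against Cpr-lox. Of all genes, 648, 631 and 625 passed there, the last out of 6235. The upper 40% filter left 1 female-biased call in liver-Cpr-null against Cpr-lox and 0 against Cpr-low. The mean of probe sets left 1 male-biased call in Cpr-low, where 477 of all genes passed. The cause of these moves was not tested.

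The fit as reported does not pair samples by pool number. Same-numbered pools correlated at -0.21 to 0.46 in their deviations from the model means, and differently numbered pools at -0.43 to 0.26. Whether pools of the same number share a factor was not tested. With the pool number as a replicate block 834, 673 and 1047 genes passed, beside 630, 514 and 748 as reported. Members passing with that block numbered 2, 4 and 4, and 2 other growth hormone signalling genes passed in each comparison that involves liver-Cpr-null. Within the first stamp Cpr-low is pool 1 alone, so no count of calls is given for it. Within the later stamps 468 genes passed in liver-Cpr-null against Cpr-low. Leaving out 1 pool at a time, the genes passing ranged over 348 to 757, 274 to 494 and 398 to 796, the members over 1 to 2, 2 to 4 and 2 to 4, other growth hormone signalling genes over 0 to 2, 0 to 1 and 0 to 1, male-biased genes over 5 to 6, 2 to 3 and 5 to 7, female-biased genes at 2, 1 and 1, and other IGF genes at 0.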
